A study of Mus musculus with 32 samples.

Results

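ATP-binding cassette transporters, ABC transporters for short, were followed across 6 populations of mouse bone marrow cells. The genes were chosen by symbol: every probe set of either chip type whose only platform gene symbol was Abc, a letter from a to g for the subfamily, and a number. This gave 92 probe sets for 45 genes among 45037 probe sets and 18193 genes with 1 symbol. The family also has members under other names (Tap1, Tap2 and Cftr), which the rule leaves out. Of the 92 probe sets, 57 (35 genes) were bright enough to be tested and 7 lay at the floor on all 15 arrays of the replicated samples.

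Most ABC proteins use ATP to move a substrate across a membrane, and the letter of the subfamily follows the sequence of the protein. Subfamily A and part of G move sterols and other lipids, B and C hold drug, bile salt, porphyrin and conjugate exporters, and D works in the peroxisome. Subfamilies E and F have no membrane part and act on the ribosome. In marrow the family is known for dye efflux: Abcg2 pumps out the dye Hoechst, and the P-glycoproteins Abcb1a and Abcb1b pump out rhodamine, and both properties are used to sort stem cells.

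RNA from 16 marrow samples was labelled with biotin, and each sample was hybridised to 1 Affymetrix array of chip type A and 1 of type B, 32 arrays in all. Flow sorting gave the stem-enriched cells, named Lin-Sca1+cKit+ in the instrument records. Cells sorted as Lin-Sca-1-cKit+ (called cKit-positive here) and Lin-Sca-1-cKit- (cKit-negative) had, like the stem-enriched cells, an estimated purity over 90%. Lineage-depleted marrow came from an enrichment kit and total marrow was not purified. These 5 populations had 3 samples each, and sorted Lin-Sca-1+cKit- cells had 1 sample. No group is described as treated, and strain, age and the number of animals per sample are not given in the sources used here. No label ties replicate samples to different animals, so the p-values measure the spread between these samples, which may be technical. Lineage depletion reached a stated 20 to 24 fold, so the last 2 replicated groups remain mixtures of cell types. The labels give 76000 to 290000 cells and RNA at 10 ng per microliter for the stem-enriched samples. Total marrow had 1000000 to 5000000 cells and 130 to 390 ng per microliter. Between these populations the amount of input and the cell population cannot be told apart.

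Kit, the gene of the sort marker cKit, went with the labels: it averaged 12.24 and 12.19 log2 units in the stem-enriched and cKit-positive cells and 9.79 in the cKit-negative cells. Sca-1 was not checked, since its gene is not analysed here. Cd34 and Flt3 had their highest means of the 5 replicated populations in the stem-enriched cells (13.76 and 12.79). The median signal per array lay between 451.4 and 996.1. The second cKit-positive sample stood apart. Its highest correlation with any other array was 0.775 on chip type A and 0.582 on B, and its log2 ratio of 3 prime to 5 prime Gapdh signal, a measure of RNA integrity, was 0.38 on chip type A against 2.68 to 4.17 in all other samples. A higher ratio means a larger excess of 3 prime signal, so that excess was smallest in the sample that stood apart and larger in all others. Counts of calls are therefore also given without that sample. In RNA from whole populations, fewer cells of a type and less RNA per cell cannot be told apart.

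Across the family, 15 of the 57 tested probe sets (26.3%), from 14 genes, differed among the 5 populations in limma's F test at an adjusted p below 0.05, against 17.3% of all 28606 tested probe sets. An unadjusted p below 0.05 was reached by 22. Without the second cKit-positive sample 18 were called, among them all 15, against 24.8% of all probe sets. By subfamily, the called probe sets were 5 of 14 tested in A, 4 of 7 in B, 0 of 14 in C, 1 of 5 in D, 1 of 2 in E, 2 of 8 in F and 2 of 7 in G. Of the 15, 8 had their highest mean in total marrow and 7 their lowest in the stem-enriched cells, against 31.4% and 22.2% of all called probe sets. The cKit-positive cells held the highest mean of 4 (23.8% of all called), the stem-enriched cells of 2 (22.7%) and lineage-depleted marrow of 1 (3.96%). Without the second cKit-positive sample these were 2, 3 and 2, since the highest mean of Abcb8 moved to the stem-enriched cells and that of Abcf1 to lineage-depleted marrow.

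**Figure D1:**
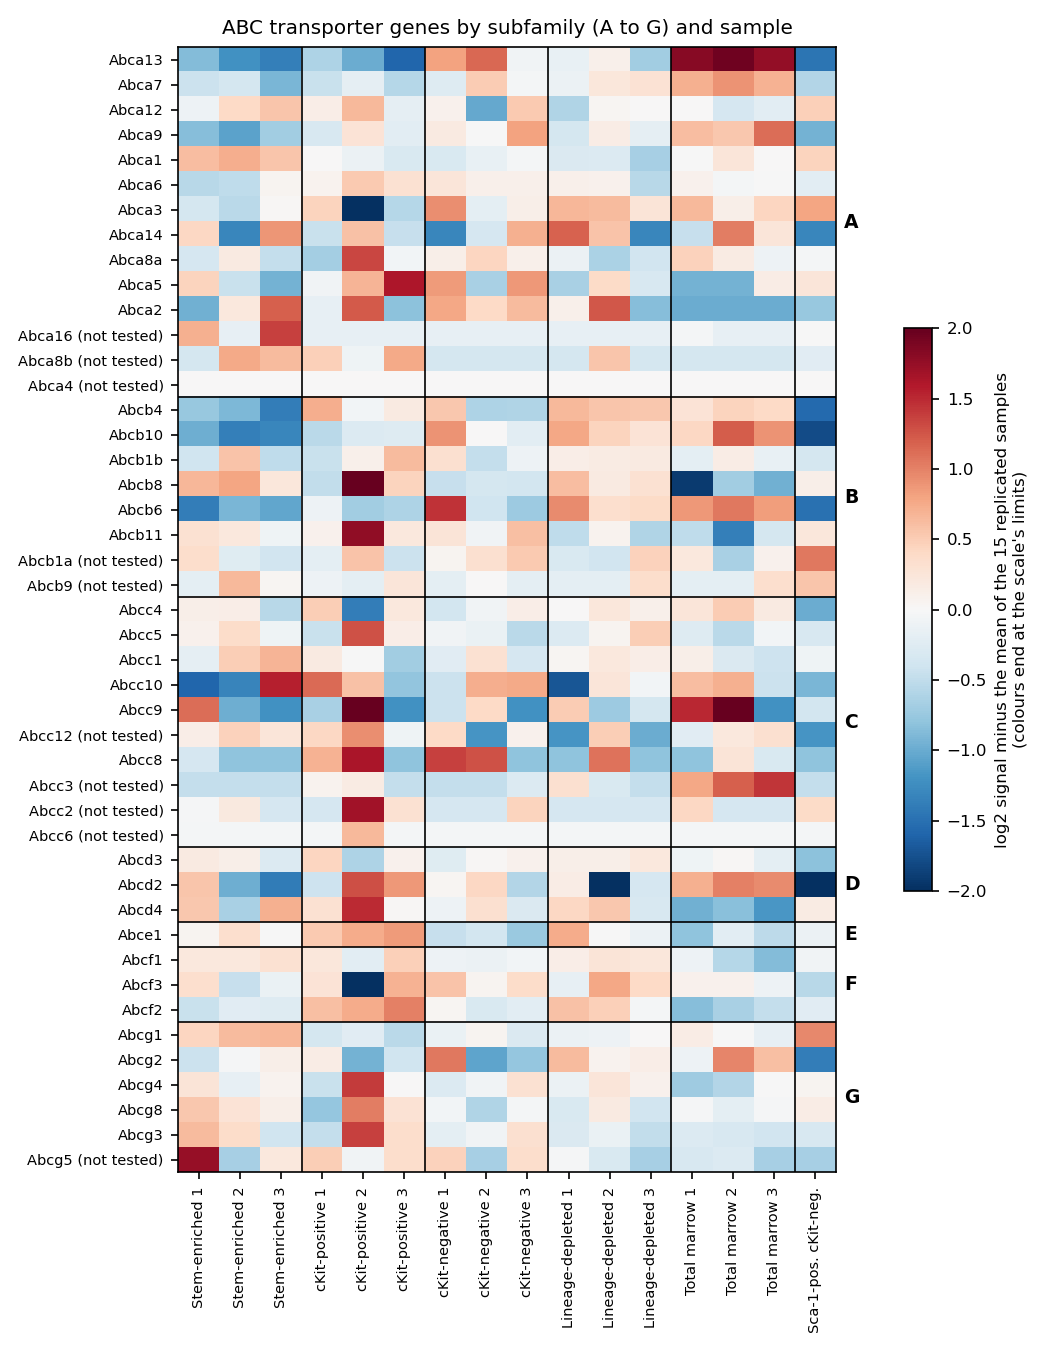
Log2 signal of the probe set that stands for each of the 45 genes, minus its mean over the 15 replicated samples, in all 16 samples; rows are grouped by subfamily, and genes that were not bright enough to test are marked. Total marrow is above its row's mean for Abca13, Abca7, Abca9, Abcb10 and Abcb6, where the stem-enriched cells are below it, and the second cKit-positive sample holds many of the extreme values.

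Subfamily A held the largest difference of the family. Abca13, a very large member of the lipid transporter subfamily, was measured by 2 probe sets, and both rose from the stem-enriched and cKit-positive cells to total marrow. On probe set 1440370_at the log2 signals were 10.56, 10.22 and 10.07 in the stem-enriched samples and 10.81, 10.44 and 9.84 in the cKit-positive samples. They were 12.24, 12.59 and 11.36 in the cKit-negative samples, 11.29, 11.53 and 10.73 in lineage-depleted marrow and 13.26, 13.38 and 13.20 in total marrow. The total marrow samples thus lay above every other sample, and the stem-enriched and cKit-positive samples overlapped each other. Abca13 was lower in the stem-enriched cells than in total marrow, with a log2 difference of -2.99 (SE 0.34, 95% interval -3.71 to -2.28, 7.96-fold, adjusted p = 1.1e-05). It was 2.09 units lower in lineage-depleted than in total marrow (SE 0.34, adjusted p = 0.00261) and 1.78 units lower in the stem-enriched than in the cKit-negative cells (SE 0.34, adjusted p = 0.00232). Cells with cKit had less than cells without it among the Sca-1-negative sorts, by 1.70 units (SE 0.34, adjusted p = 0.00289). That comparison had an adjusted p of 0.0684 when only samples of the scan day shared by the populations were used, with the same difference. On chip type B all arrays of both populations were scanned that day. That fit therefore dropped only other populations and cannot test scan day. The call was also lost when only the 2 compared populations were fitted. The other probe set, 1446715_at, was also lower than in total marrow, with differences of -2.60 in the stem-enriched cells (SE 0.56, adjusted p = 0.00375) and -2.29 in lineage-depleted marrow (SE 0.56, adjusted p = 0.0256). The latter call was lost when any 1 of the 6 samples compared was left out, with adjusted p between 0.0522 and 0.117.

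The summed signal of 8 neutrophil marker genes moved with Abca13. Its log2 value was 14.90 to 16.05 in the stem-enriched samples, 14.28 to 15.13 in the cKit-positive samples, 17.79 to 18.90 in lineage-depleted marrow, 18.55 to 19.34 in the cKit-negative samples and 19.17 to 19.45 in total marrow. All 8 markers were lower in the stem-enriched cells than in total marrow, and none was at the floor in every sample of a population. The part of neutrophil RNA in the Abca13 values was not tested.

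Abca7, a phospholipid exporter of macrophages and other cells, had log2 signals of 10.70, 10.78 and 10.22 in the stem-enriched samples and 11.83, 12.02 and 11.81 in total marrow. The other populations lay between, with means of 10.72 in the cKit-positive, 11.19 in the cKit-negative and 11.26 in the lineage-depleted samples. The stem-enriched cells were lower than total marrow by 1.32 units (SE 0.24, 2.50-fold, adjusted p = 0.00118), and the F test for Abca7 (adjusted p = 0.00497) was kept under every alternative run. Abca9, whose human counterpart responds to cholesterol in macrophages, had 10.03, 9.80 and 10.17 in the stem-enriched samples, below every other sample of the replicated populations, and 11.49, 11.41 and 11.99 in total marrow. Its difference from total marrow was -1.63 units (SE 0.33, 3.09-fold, adjusted p = 0.00237) and from the cKit-negative cells -1.19 units (SE 0.33, adjusted p = 0.0292). The latter call ended without any 1 of the stem-enriched samples or the first or the third cKit-negative sample (0.0525 to 0.14). The F test for Abca9 (adjusted p = 0.0152) lost its call without the second stem-enriched sample (0.0529) or the third total marrow sample (0.0703). A second probe set of Abca9, 1458929_at, did not pass (adjusted p = 0.702), with means of 9.63 in the stem-enriched cells and 10.24 in total marrow. The summed signal of 10 monocyte and macrophage markers was 14.27 to 15.43 log2 units in the stem-enriched samples, 14.79 to 14.95 in the cKit-positive samples, 15.70 to 15.93 in lineage-depleted marrow, 16.10 to 16.40 in the cKit-negative samples and 16.06 to 16.19 in total marrow. The cKit-negative samples overlapped with total marrow or lay above it in this sum but had lower means of Abca7 and Abca9. The sum adds linear signals, and Csf1r and Mpeg1 were its largest parts in both. These markers, Ly86 and Adgre1 had higher means in the cKit-negative cells than in total marrow, and Cd68 was at 11.47 in both. Vcam1 and C1qb had higher means in total marrow (12.47 and 11.10) than in the cKit-negative cells (10.38 and 8.62). The same held for C1qa, Ccr2 and Marco. Of these markers C1qa was at the floor in all stem-enriched, cKit-positive and cKit-negative samples. The part of monocyte RNA in these results was not tested.

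Abca1, which loads cholesterol and phospholipid onto apolipoprotein A-I, ran the other way. Its log2 signals were 10.87, 10.99 and 10.81 in the stem-enriched samples, above all 12 other samples of the replicated populations, which lay between 9.60 and 10.51. It was higher in the stem-enriched cells than in lineage-depleted marrow by 1.04 units (SE 0.21, 2.06-fold, adjusted p = 0.0132) and than in the cKit-negative cells by 0.80 (SE 0.21, adjusted p = 0.0253). The former call ended without the second stem-enriched or the third lineage-depleted sample (0.0789 and 0.0745). The latter ended without any 1 of the stem-enriched or the first 2 cKit-negative samples (0.0594 to 0.0993). The difference from total marrow, 0.55 units, did not pass (adjusted p = 0.0964). Abca1 lost its F test call (adjusted p = 0.0164) without the second or the third stem-enriched sample (0.0796 and 0.0504) and with chip lot as a block (0.0745), and a second probe set, 1421839_at, did not pass (0.386), with means of 9.26 in the stem-enriched cells and 8.35 in total marrow. The stem-enriched cells also had the highest Gapdh ratio, 4.00 ± 0.17 (SD, n = 3) log2 units on chip type A. With that ratio as a covariate the Abca1 calls were kept, with a difference of 1.04 from lineage-depleted marrow (adjusted p = 0.0104) and of 0.81 from the cKit-negative cells (adjusted p = 0.026). On chip type A that ratio varied within populations mainly among the cKit-positive samples (SD 1.49, against 0.17 to 0.33 in the others). The covariate therefore mostly follows the second cKit-positive sample and cannot decide what the higher ratio of the stem-enriched cells contributes. Of the other 10 genes of subfamily A none passed. Abca12, the lipid transporter of skin keratinocytes, had means between 10.91 and 11.38 (adjusted p = 0.712). Abca2, Abca3, Abca5, Abca6, Abca8a and Abca14 had adjusted p between 0.209 and 0.959. Abca8b and Abca16 were too dim to test, and Abca4, the retinoid transporter of the eye, lay at the floor on all 15 arrays.

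Abca13 and Abca1 had the opposite order of means between stem-enriched cells and total marrow, and their promoters are shown for that contrast. The difference of Abca1 from total marrow did not pass its test. The 250 bases before the gene start (RefSeq, GRCm38.p6) lie at chr11:9191692-9191941 on the plus strand for Abca13 and chr4:53159896-53160145 on the minus strand for Abca1. Capitals mark matches, on either strand, to the TATA box motif TATANAA and, in Abca1, to the repeat known to bind the oxysterol receptors of the LXR family, searched as GGTTA and GGTCA with a spacer of 5 bases.
Abca13: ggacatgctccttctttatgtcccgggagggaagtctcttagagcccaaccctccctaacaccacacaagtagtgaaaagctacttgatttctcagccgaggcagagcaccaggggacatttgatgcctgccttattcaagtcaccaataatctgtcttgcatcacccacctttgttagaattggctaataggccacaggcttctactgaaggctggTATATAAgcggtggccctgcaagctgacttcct
Abca1: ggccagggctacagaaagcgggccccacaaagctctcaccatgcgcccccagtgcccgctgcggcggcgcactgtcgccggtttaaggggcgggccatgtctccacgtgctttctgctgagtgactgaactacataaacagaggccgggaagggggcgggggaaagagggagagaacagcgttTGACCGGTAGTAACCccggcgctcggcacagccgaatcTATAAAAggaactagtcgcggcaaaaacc
The TATA match begins 33 bases before the start in Abca13 and 29 in Abca1, and 10.4% of 32841 promoters hold such a match. The LXR repeat of Abca1 begins 67 bases before the start, and 15 promoters (0.0457%) hold it. A match is a match of letters only. Of the 45 genes, 35 had a promoter in the reference table.

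Subfamily B held the transporters tied to heme. Abcb10, a protein of the inner mitochondrial membrane that red cell precursors need to make heme, had the second strongest F test of the family (adjusted p = 0.000459), and it was kept under all alternatives. Its log2 signals were 10.33, 9.93 and 10.00 in the stem-enriched samples, 10.77, 11.03 and 11.04 in the cKit-positive samples and 12.19, 11.31 and 11.08 in the cKit-negative samples. Lineage-depleted marrow had 12.08, 11.74 and 11.58, and total marrow 11.71, 12.52 and 12.20. The stem-enriched samples were below all others of the replicated populations. They were lower than total marrow by 2.06 units (SE 0.28, 95% interval -2.65 to -1.46, 4.16-fold, adjusted p = 0.000107), than lineage-depleted marrow by 1.71 (SE 0.28, adjusted p = 0.00265) and than the cKit-negative cells by 1.44 (SE 0.28, adjusted p = 0.00338). Another probe set of Abcb10, 1416403_at, did not pass (adjusted p = 0.602), with means of 9.23 in the stem-enriched cells and 10.04 in total marrow. With chip lot as a block on chip type A, the difference from total marrow was -2.01 (adjusted p = 0.00636), and the difference from lineage-depleted marrow was -1.24 (adjusted p = 0.175).

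Abcb6, a porphyrin transporter that carries a human blood group, followed the same order. The stem-enriched samples had 8.52, 8.99 and 8.86 log2 units, the cKit-positive samples 9.80, 9.21 and 9.28 and the lineage-depleted samples 10.85, 10.23 and 10.28. Total marrow had 10.76, 10.95 and 10.74. The cKit-negative samples spread widely, at 11.35, 9.50 and 9.18. Abcb6 was lower in the stem-enriched cells than in total marrow by 2.03 units (SE 0.42, 4.07-fold, adjusted p = 0.00346) and than in lineage-depleted marrow by 1.66 (SE 0.42, adjusted p = 0.0463). With chip lot as a block these became -1.07 (adjusted p = 0.171) and -0.27 (adjusted p = 0.874), and the call against lineage-depleted marrow was lost under 18 of 26 alternatives. All stem-enriched arrays of chip type A came from 1 lot, all total marrow arrays from another, and the lineage-depleted arrays from that lot and another.

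Erythroid markers were measured beside both genes. The log2 sum of the 8 measured markers was 14.06 to 14.51 in the stem-enriched samples, 14.42 to 15.42 in the cKit-positive samples, 16.12 to 16.73 in lineage-depleted marrow and 17.14 to 17.67 in total marrow. The cKit-positive samples overlapped with the stem-enriched samples in this sum but lay above them for Abcb10 and Abcb6. The sum adds linear signals, and Car2 was its largest part in these populations (log2 means of 14.20 and 13.92). Ermap was higher in the cKit-positive cells, at 12.20 against 9.86 (adjusted p = 0.0432 in limma's fit). Klf1, Rhag and Epb42 also had higher means there, and Alas2, Slc4a1 and Hba-a1 lower means. In the cKit-negative samples the sum was 17.34, 15.55 and 15.20, highest in the sample that also had the highest Abcb6, Abcb10 and Abcg2 of its population. On chip type A that sample also came from a different chip lot than the rest of its population. No erythroid marker was at the floor in all samples of a population. The part of erythroid RNA in these values was not tested. Of 17 listed genes of heme and iron-sulfur supply, 15 were tested, 7 passed the F test (17.3% of all tested probe sets), and 8 were lower in the stem-enriched cells than in total marrow (7.14% of all), with none higher. The other 7 did not pass, and among them Ppox, an enzyme of the same pathway, had 10.44 in the stem-enriched cells and 9.25 in total marrow. Those lower included Fech, the enzyme that inserts iron into heme, with a difference of -3.13 (adjusted p = 7.9e-06), and Slc25a37, the mitochondrial iron importer, with -3.02 (adjusted p = 4.5e-05). The list's median was -1.19, against 0.12 over all tested probe sets. The list has Alas2 in common with the erythroid markers.

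**Figure D2:**
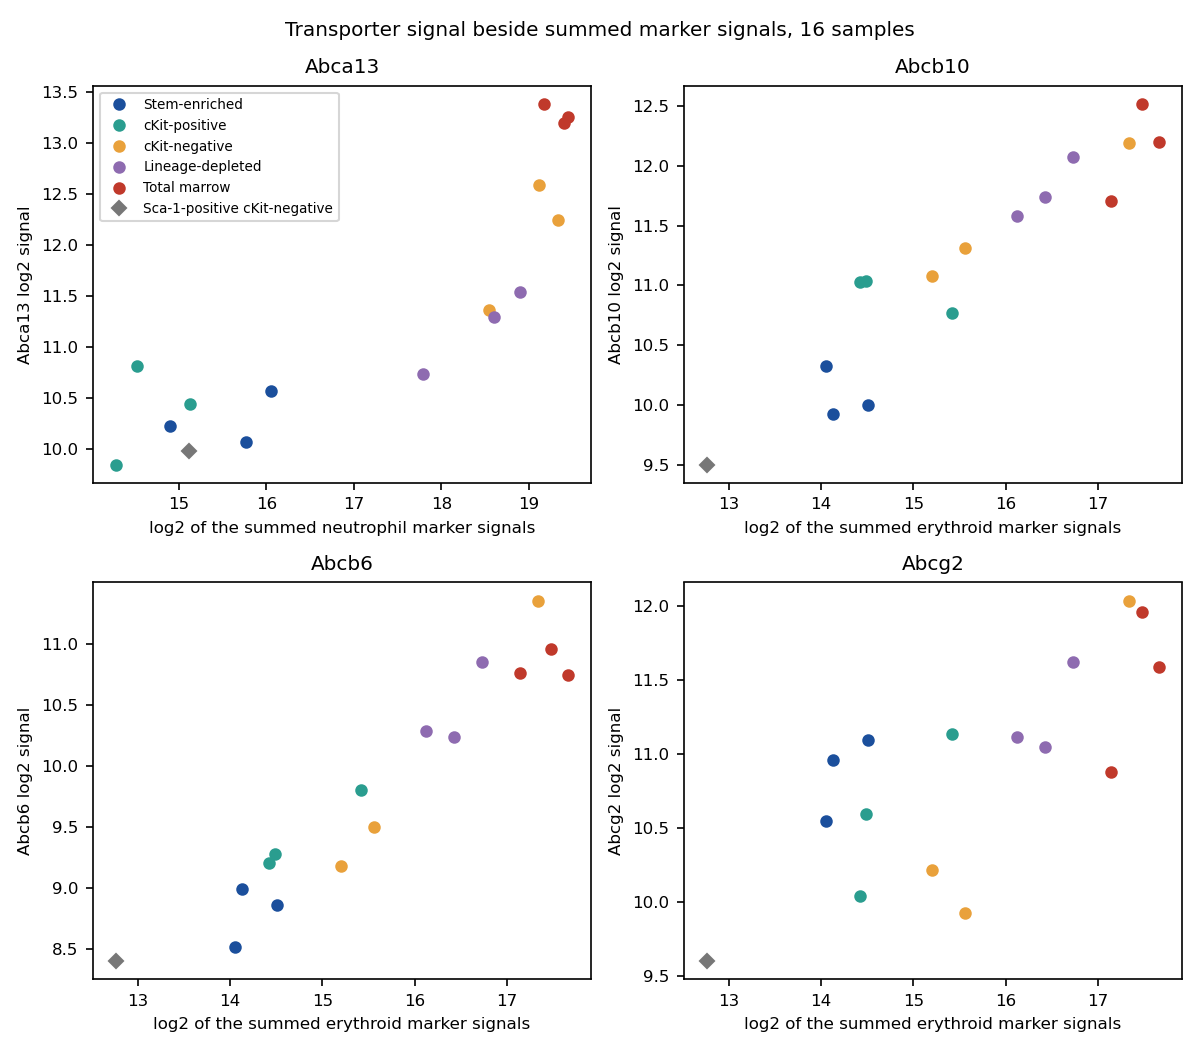
Log2 signal of Abca13 against the log2 summed signal of 8 neutrophil markers, and of Abcb10, Abcb6 and Abcg2 against that of 8 erythroid markers; each point is 1 of 16 samples, coloured by population. The cKit-negative sample with an erythroid sum of 17.34 has the highest Abcb10, Abcb6 and Abcg2 of its population, and the Lin-Sca-1+cKit- sample has the lowest erythroid sum, 12.76, and the lowest value of these 3 genes.

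The 250 bases before the start of Abcb6 (chr1:75180393-75180642, minus strand) and Abcb10 (chr8:123983123-123983372, minus strand) are shown because the 2 genes moved together. Searched on both strands were AGATAA, the site of GATA factors, and CCNCNCCC, the CACCC box of Krüppel-like factors, and capitals mark the matches.
Abcb6: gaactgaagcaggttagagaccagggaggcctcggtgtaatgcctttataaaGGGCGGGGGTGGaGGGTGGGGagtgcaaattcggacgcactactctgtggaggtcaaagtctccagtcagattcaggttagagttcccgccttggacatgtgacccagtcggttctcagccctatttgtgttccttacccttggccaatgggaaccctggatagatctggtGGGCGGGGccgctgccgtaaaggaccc
Abcb10: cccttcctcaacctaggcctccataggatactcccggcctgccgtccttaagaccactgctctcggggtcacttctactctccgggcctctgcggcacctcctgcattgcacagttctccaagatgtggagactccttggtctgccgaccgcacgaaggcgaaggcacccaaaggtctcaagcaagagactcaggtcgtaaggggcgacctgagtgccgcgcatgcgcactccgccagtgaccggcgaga
Abcb6 has 4 matches to the CACCC box, of which the leftmost overlaps its neighbour, and 45.9% of promoters hold at least 1. AGATAA, present in 9.99% of promoters, is in neither window, and Abcb10 has no match to either motif.

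Abcb4, which flips phosphatidylcholine into bile in the liver, was lowest in the stem-enriched cells. Its log2 signals were 11.77, 11.63 and 11.16 in the stem-enriched samples, 13.26, 12.49 and 12.72 in the cKit-positive samples and 13.06, 11.91 and 11.94 in the cKit-negative samples. Lineage-depleted marrow had 13.18, 13.09 and 13.07 and total marrow 12.81, 12.98 and 12.93. The stem-enriched samples were below all others of the replicated populations. The difference from the cKit-positive cells was -1.30 units (SE 0.28, 2.46-fold, adjusted p = 0.0241), that from lineage-depleted marrow -1.60 (SE 0.28, adjusted p = 0.0051) and that from total marrow -1.39 (SE 0.28, adjusted p = 0.00326). The call against the cKit-positive cells was lost without the second (0.0742) or the third stem-enriched sample (0.13) or the first cKit-positive sample (0.0534), and within the shared chip lot the difference was -1.08 (adjusted p = 0.124). Of the cKit-positive samples, that lot held only the second, which stood apart, and the third. With chip lot as a block the differences from lineage-depleted and total marrow were -0.67 (adjusted p = 0.418) and -0.59 (adjusted p = 0.308). The F test of Abcb4 was kept under all alternatives.

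Abcb8, a mitochondrial member tied to iron export, was lowest in total marrow. There it had 8.31, 9.52 and 9.26 log2 units, against 10.90, 11.01 and 10.46 in the stem-enriched cells, a difference of 1.76 units (SE 0.46, 3.38-fold, adjusted p = 0.0153). The cKit-positive samples ran from 9.74 to 12.24, the latter in the sample that stood apart. Leaving out the second stem-enriched or the first total marrow sample ended the call (adjusted p 0.0625 and 0.0779), and with chip lot as a block the difference was 0.55 (adjusted p = 0.694). The bile salt pump Abcb11 did not pass the F test, and the 3 probe sets of Abcb9, a lysosomal peptide transporter, were too dim to test.

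**Figure D3:**
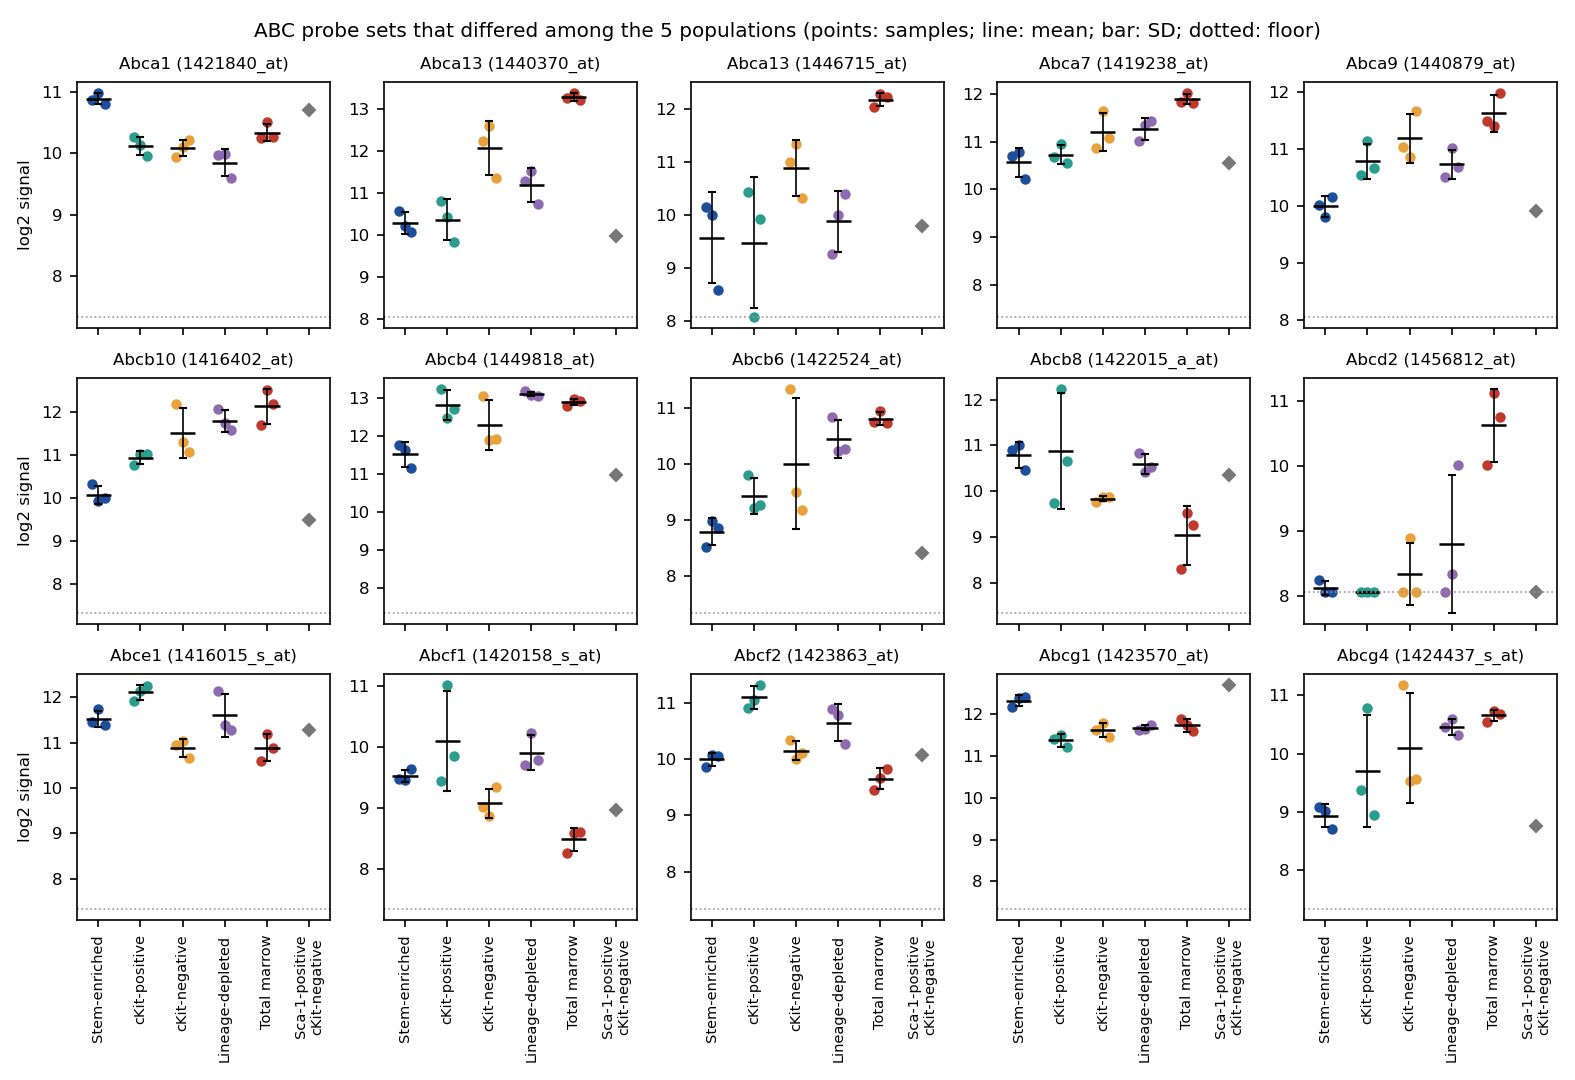
Log2 signal of the 15 ABC probe sets that passed the F test, in the 3 samples of each of 5 populations (points, with mean and SD) and in the Lin-Sca-1+cKit- sample (diamond); the dotted line is the floor. Total marrow lies highest for Abca13 (13.28 on 1440370_at) and the stem-enriched cells for Abcg1 (12.33) and Abca1 (10.89).

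The dye efflux transporters showed no difference among populations on a tested probe set. Abcg2 (1422906_at) had log2 signals of 10.55, 10.96 and 11.10 in the stem-enriched samples and 11.14, 10.04 and 10.60 in the cKit-positive samples. The cKit-negative samples had 12.04, 9.93 and 10.22, lineage-depleted marrow 11.62, 11.05 and 11.12 and total marrow 10.88, 11.96 and 11.59. Every other population overlapped with the stem-enriched samples, and the widest spread was among the cKit-negative samples. The F test did not pass (adjusted p = 0.449), and the difference between the stem-enriched cells and total marrow was -0.61 units (95% interval -1.55 to 0.33, adjusted p = 0.416). At the spread of this probe set (SE 0.44) a difference of that size was not detectable. Against the cKit-positive cells the difference was 0.28 (95% interval -0.66 to 1.22, adjusted p = 0.821).

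Abcb1b was measured by 2 probe sets that disagree. On 1446701_at of chip type B the stem-enriched samples had 10.47, 11.43 and 10.35 log2 units and total marrow 10.67, 11.01 and 10.71, and the F test gave an adjusted p of 0.953. On 1418872_at of chip type A the stem-enriched samples had 8.62, 9.23 and 9.12, above all other samples, and the cKit-positive samples 8.49, 8.08 and 8.28. The rest lay between the floor of 7.34 and 8.52. This probe set was too dim for the filter. In a fit of all 45037 probe sets without a filter it was higher in the stem-enriched cells than in total marrow by 1.40 units (SE 0.32, adjusted p = 0.0201) and than in the cKit-negative cells by 1.40 (SE 0.32, adjusted p = 0.0282), with an F test adjusted p of 0.051. These fitted differences use values at the floor. Abcb1a was near or at the floor on both its probe sets: 1419758_at was above 7.34 in 2 of the 15 samples, and 1419759_at ran from 7.34 to 8.56 with overlapping populations.

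**Figure D4:**
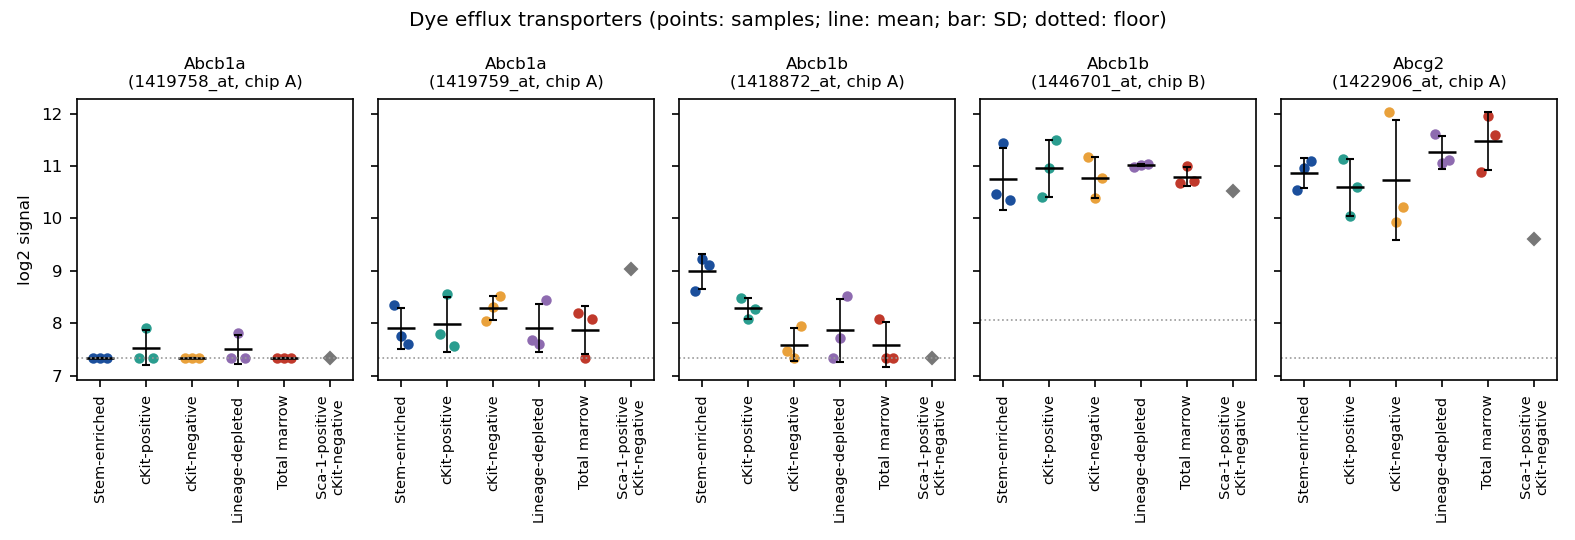
Log2 signal of every probe set of Abcb1a, Abcb1b and Abcg2 by population (points with mean and SD; diamond, the Lin-Sca-1+cKit- sample; dotted line, the floor). The stem-enriched samples stand above the others on 1418872_at of Abcb1b (8.62 to 9.23) but not on 1446701_at or for Abcg2.

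Subfamily C, the multidrug resistance proteins and potassium channel partners, had 25 probe sets for 10 genes, and none of the 14 tested passed the F test. Abcc4, an exporter of cyclic nucleotides and prostanoids, had log2 signals of 12.39, 12.40 and 11.72 in the stem-enriched, 12.76, 10.88 and 12.48 in the cKit-positive and 11.90, 12.20 and 12.41 in the cKit-negative samples. Lineage-depleted marrow had 12.27, 12.50 and 12.38 and total marrow 12.51, 12.78 and 12.46, and the populations overlapped (adjusted p = 0.726). Abcc1, the exporter of glutathione conjugates and leukotriene C4, had means between 10.38 in total marrow and 10.91 in the stem-enriched cells (adjusted p = 0.506). Abcc8 and Abcc9, the sulfonylurea receptor subunits of potassium channels, were at the floor in 7 and 4 of 15 samples and did not pass (adjusted p = 0.545 and 0.763), nor did Abcc10 (0.73), and Abcc2, Abcc6 and Abcc12 were too dim to test. In single comparisons only Abcc5, a cyclic nucleotide exporter, passed, on different probe sets. On 1418042_a_at it was lower in the stem-enriched cells (10.81, 11.33 and 11.01) than in total marrow (11.63, 11.85 and 12.01) by 0.78 units (SE 0.22, adjusted p = 0.0242). On 1435684_at it was lower in the cKit-positive cells (10.73, 8.02 and 9.61) than in the cKit-negative cells (11.10, 11.18 and 10.87) by 1.60 (SE 0.44, adjusted p = 0.0265). The 7 tested probe sets of Abcc5 disagree: 1435683_a_at ran the other way in both comparisons, with means of 11.58 in the stem-enriched cells and 11.18 in total marrow, and of 11.79 in the cKit-positive and 11.21 in the cKit-negative cells, and did not pass (adjusted p = 0.484 and 0.307). The lowest value on 1435684_at, 8.02, belongs to the sample that stood apart. Without that sample the difference between cKit-positive and cKit-negative cells was -0.88 (SE 0.28, adjusted p = 0.0495). Each of these calls ended when any of several single samples was left out (4 samples for the former and 3 for the latter). Abcc3, an exporter of bile salts and glucuronides, was too dim to test, with 8.60, 9.02 and 9.25 in total marrow and 7.34 to 8.14 elsewhere. Of the 35 probe sets under the filter it was the only one to pass an F test without the filter (adjusted p = 0.00474).

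Subfamily D showed 1 difference. Abcd2, a peroxisomal importer of very long chain fatty acids, had 10.02, 11.11 and 10.74 log2 units in total marrow on 1456812_at, and the floor of 8.07 in 8 of the other 12 replicated samples. The third lineage-depleted sample, at 10.02, touched the range of total marrow. The stem-enriched cells (8.25, 8.07 and 8.07) were lower than total marrow by 2.49 units (SE 0.56, 5.63-fold, adjusted p = 0.00535), a value limited by the floor. This probe set passed the chip type's median only in the total marrow samples and that lineage-depleted sample. It was tested through these samples alone, so its calls, the F test included, are no separate support for a higher level in total marrow. A probe set of the other chip type, 1419748_at, was at the floor in all 3 stem-enriched samples and at 10.05, 9.74 and 8.94 in total marrow, at least 4.71-fold higher (adjusted p = 0.0252, lost without any of the 3 stem-enriched or the first 2 total marrow samples). The F test of Abcd2 (adjusted p = 0.0121) lost its call without the second or the third total marrow sample (0.0925 and 0.0692). Abcd3, which brings branched fatty acids and bile acid precursors into peroxisomes, had 11.64, 11.57 and 11.19 in the stem-enriched, 11.88, 10.84 and 11.55 in the cKit-positive and 11.22, 11.48 and 11.54 in the cKit-negative samples. With 11.57, 11.57 and 11.66 in lineage-depleted and 11.37, 11.47 and 11.26 in total marrow, the population means lay between 11.37 and 11.60 (adjusted p = 0.93). Abcd4, which works in vitamin B12 release from the lysosome, had a mean of 7.58 in total marrow and 8.54 to 9.17 elsewhere, and its F test did not pass (adjusted p = 0.132). Among 10 other tested genes of peroxisomal oxidation and import, 4 passed the F test (17.3% of all tested probe sets). In the stem-enriched cells against total marrow Pex5 was higher by 1.08 units (adjusted p = 0.0118, 7.22% of all higher). Scp2 was lower by 0.93 (adjusted p = 0.0173, 7.14% of all lower).

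Of the members that act on the ribosome, Abce1 and Abcf2 had their highest means in the cKit-positive cells. Abce1, which splits ribosomes after termination, had 11.92, 12.15 and 12.25 log2 units there on 1416015_s_at, against 11.46, 11.73 and 11.39 in the stem-enriched, 10.95, 11.03 and 10.66 in the cKit-negative and 10.59, 11.19 and 10.88 in the total marrow samples. Lineage-depleted marrow had 12.14, 11.40 and 11.28 and overlapped with the cKit-positive samples. Abce1 was higher in the cKit-positive than in the cKit-negative cells by 1.23 units (SE 0.25, 2.34-fold, adjusted p = 0.00336), and by 1.32 within the shared scan day (adjusted p = 0.0659). Of the cKit-positive arrays of this chip type, only the second and the third were scanned that day. A second probe set, 1416014_at, did not pass (adjusted p = 0.509), though its highest mean, 11.47, was also in the cKit-positive cells. Probe sets whose name ends in _s_at can match more than 1 transcript.

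Abcf2, an ATPase of the same group without a membrane part, had 10.92, 11.05 and 11.32 log2 units in the cKit-positive samples, above all other replicated samples. The stem-enriched samples had 9.87, 10.08 and 10.06, the cKit-negative samples 10.35, 10.01 and 10.10, lineage-depleted marrow 10.90, 10.78 and 10.27 and total marrow 9.46, 9.66 and 9.83. The cKit-positive cells were higher than the stem-enriched cells by 1.10 units (SE 0.23, 2.14-fold, adjusted p = 0.0191) and than the cKit-negative cells by 0.94 (SE 0.23, adjusted p = 0.0132). Within the chip lot they share these were 1.19 (adjusted p = 0.118) and 1.13 (adjusted p = 0.0838). Only the second and the third cKit-positive samples came from that lot. The call against the stem-enriched cells ended without the second or the third stem-enriched or the third cKit-positive sample, with adjusted p of 0.0637, 0.0694 and 0.0637, and the call against the cKit-negative cells without the third cKit-positive or the second cKit-negative sample (0.0507 and 0.0668). Lineage-depleted marrow was higher than total marrow by 1.00 (SE 0.23, adjusted p = 0.0221), a call lost with chip lot as a block (0.283) and without any of 5 of the 6 samples (0.0637 to 0.106); the third lineage-depleted sample was the exception. The F test of Abcf2 (adjusted p = 0.00186) was kept throughout.

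Abcf1, which assists translation initiation, was measured by 5 tested probe sets that differ in detail. The probe set 1420157_s_at had 12.96, 12.96 and 13.06 log2 units in the stem-enriched samples and 12.65, 12.19 and 11.89 in total marrow, a difference of 0.75 (SE 0.22, adjusted p = 0.0264) that ended without any 1 of the stem-enriched or the last 2 total marrow samples (0.0539 to 0.146). Its F test missed the threshold (adjusted p = 0.0688). On 1420158_s_at, which passed the F test (adjusted p = 0.0149), total marrow had 8.26, 8.58 and 8.60 and lineage-depleted marrow 9.70, 10.24 and 9.79, a difference of 1.43 (SE 0.35, adjusted p = 0.0282). Leaving out any 1 of these 6 samples ended that call (0.0667 to 0.116), and the F test was lost without the first total marrow sample (0.0536). Total marrow was lowest on both probe sets. On 1452429_s_at the cKit-positive cells were higher than the cKit-negative cells by 1.84 (SE 0.55, adjusted p = 0.0408), which was lost under 16 of 27 alternatives, among them leaving out the second cKit-positive sample (0.106). Abcf3, an ATPase tied to antiviral defence, did not pass on either tested probe set (adjusted p = 0.66 and 0.576). Of 8 tested genes of ribosome recycling and termination, none passed the F test (17.3% of all tested probe sets), and only 1 comparison passed, between the cKit-positive and cKit-negative cells.

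In subfamily G, Abcg1, which hands cholesterol to high-density lipoprotein, was highest in the stem-enriched cells, like Abca1. Its log2 signals on 1423570_at were 12.18, 12.39 and 12.42 there, above all 12 other replicated samples, which lay between 11.21 and 11.90. It was higher than in the cKit-positive cells by 0.95 units (SE 0.18, 1.93-fold, adjusted p = 0.0108), than in the cKit-negative cells by 0.70 (SE 0.18, adjusted p = 0.0246) and than in total marrow by 0.59 (SE 0.18, adjusted p = 0.0408). The first of these was 0.96 within the shared chip lot (adjusted p = 0.136), which held only the second and the third of the cKit-positive samples. It ended without the second or the third stem-enriched sample (0.0614 and 0.0672). The call against the cKit-negative cells ended without the second or the third stem-enriched or the first or the third cKit-negative sample (0.0701 to 0.0956). It also ended with chip lot as a block, with scan day as a random block and within the shared chip lot (adjusted p up to 0.196). The F test of Abcg1 (adjusted p = 0.0136) lost its call without the second or the third stem-enriched sample and with scan day as a random block (up to 0.0711). The call against total marrow ended under 11 of 26 alternatives, among them the block on replicate number (0.0516) and leaving out any 1 of 7 samples (0.0516 to 0.16). A probe set of the other chip type, 1455221_at, did not pass (adjusted p = 0.586) and had the opposite order, with 9.77 in the stem-enriched cells and 10.55 in total marrow. Among 11 other tested genes of sterol efflux, only Mylip, an LXR target that degrades the LDL receptor, passed the F test (17.3% of all tested probe sets). None passed between the stem-enriched cells and total marrow (14.4% of all).

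Abcg4, a sterol exporter best known from brain, passed the F test narrowly on 1424437_s_at (adjusted p = 0.0487), and 16 of 25 alternatives ended that call. Its log2 signals were 9.08, 9.01 and 8.71 in the stem-enriched samples and 10.55, 10.73 and 10.68 in total marrow, a difference of -1.72 (SE 0.44, 3.29-fold, adjusted p = 0.0131) that became -1.58 with chip lot as a block (adjusted p = 0.162) and ended without the third stem-enriched or the second total marrow sample (0.0552 and 0.0526). The cKit-negative samples had 11.18, 9.53 and 9.55, the highest in the sample with the highest erythroid sum. On its other probe set, 1427732_s_at, that sample was the lowest of its population (9.86, 10.05 and 10.43). That probe set had means of 10.18 in the stem-enriched cells and 9.70 in total marrow (adjusted p = 0.549). Abcg3 and Abcg8 did not pass, and Abcg5 was too dim to test.

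Taken by comparison, the family differed most between the stem-enriched cells and total marrow. There 14 of 57 probe sets passed (24.6%, 12 genes), against 14.4% of all tested probe sets. Of these 11 were lower in the stem-enriched cells, against 7.14% of all probe sets, and 3, of Abcb8, Abcf1 and Abcg1, were higher, against 7.22%. The median difference over the 57 was -0.11 log2 units, against 0.12 over all. Without the second cKit-positive sample 16 of the 57 passed, against 21.9% of all. With chip lot as a block on chip type A, 2 of the 10 calls on that chip type were left (Abca7 and Abcb10); the 4 calls on chip type B, where the block did not act, were left as they were, 6 in all. Only chip type A allows that block, since lot and population cannot be told apart on chip type B, where the total marrow arrays and the single Lin-Sca-1+cKit- array came from 1 lot and all others from another. Without the third stem-enriched or the second total marrow sample 9 were left. Scan day went with population too. All stem-enriched arrays were scanned on day 1 and all lineage-depleted arrays on day 3. Total marrow arrays were scanned on day 5 (chip type A) or day 4 (B). Of the populations compared, only the cKit-positive and cKit-negative cells had a day in common. In every other comparison day and population change together, and no block can part them. The part of scan day in those differences, Abca13 included, was not tested.

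Each of the other comparisons moved few members. Between the stem-enriched and cKit-positive cells 3 of 57 passed (2.23% of all probe sets), Abcg1 higher (1.49% of all) and Abcb4 and Abcf2 lower (0.741%), with a median of -0.27 against -0.03 over all. None was left within the chip lot they share. Of the cKit-positive samples on chip type A, that lot held only the second, which stood apart, and the third. Between the stem-enriched and cKit-negative cells 5 passed (8.48% of all), Abca1 and Abcg1 higher (3.71%) and Abca13, Abca9 and Abcb10 lower (4.78%). Within the shared chip lot 1 was left, Abca13, which is on chip type B, where that restriction did not act. Between the cKit-positive and cKit-negative cells 5 passed (11.5% of all), Abce1, Abcf1 and Abcf2 higher (5.01%) and Abca13 and Abcc5 lower (6.46%). Of these calls 3 were left within the shared lot, among them Abca13 of chip type B, and 0 within the shared scan day. For Abca13 the fit within that day dropped only other populations, since all arrays of both populations on chip type B were scanned then. An unadjusted p below 0.05 in limma's fit of all samples was reached by 10 of the 57. Between lineage-depleted and total marrow 4 passed (4.23% of all), probe sets of Abcf1 and Abcf2 higher (2.05%) and both of Abca13 lower (2.17%). Between the stem-enriched cells and lineage-depleted marrow 4 passed (2.35% of all), Abca1 higher (0.783%) and Abcb10, Abcb4 and Abcb6 lower (1.57%), of which 0 were left with chip lot as a block. Without the second cKit-positive sample the counts were, in this order, 3 (2.92% of all), 8 (14.8%), 5 (13.1%), 6 (9.69%) and 6 (5.23%). These comparisons share samples and are not independent of each other.

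**Figure D5:**
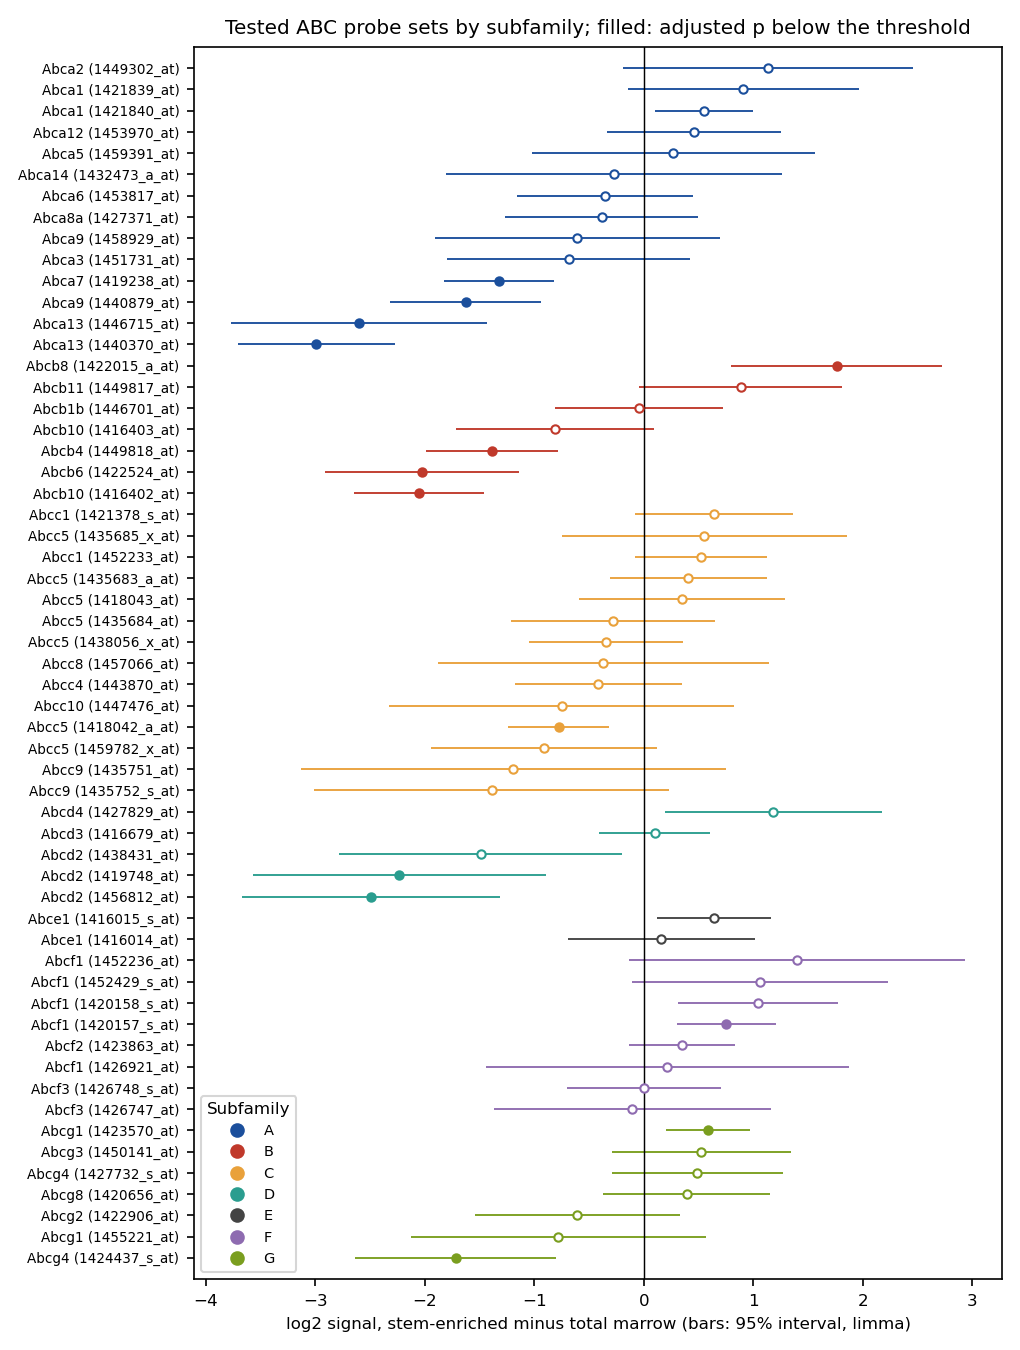
Difference in log2 signal between the stem-enriched cells and total marrow for the 57 tested ABC probe sets, with 95% intervals from limma, grouped and coloured by subfamily; filled points passed the adjusted p. The largest differences are the 2 Abca13 probe sets (-2.99 and -2.60) and the filled points to the right of 0 are Abcb8 (1.76), Abcf1 (0.75) and Abcg1 (0.59).

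The peptide transporters of the family that carry other names, Tap1 and Tap2, both passed the F test. They were higher in the stem-enriched cells than in total marrow by 1.04 log2 units (SE 0.18, adjusted p = 0.00102) and 1.02 (SE 0.20, adjusted p = 0.00208). Both feed peptides to MHC class I molecules, and 4 of 8 tested genes of peptide loading, Tap1 and Tap2 among them, were higher in the stem-enriched cells than in total marrow (7.22% of all tested probe sets), with none lower. Pdia3, a chaperone of that list, was lower in the stem-enriched cells than in the cKit-positive cells (-1.26, adjusted p = 0.00222) and the cKit-negative cells (-0.67, adjusted p = 0.0379). Cftr, a chloride channel, was too dim to test. Of 13 tested genes of xenobiotic response and conjugation, 6 passed the F test (17.3% of all) and 4 were lower in the stem-enriched cells than in total marrow (7.14% of all), with a median difference of 0.05 over the list. The strongest were Gsr, which reduces glutathione, at -2.91 (adjusted p = 2.1e-05), and Mgst1, a membrane glutathione transferase, at -2.64 (adjusted p = 7.6e-06).

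The single Lin-Sca-1+cKit- sample has no replicate and was set beside the range of the 15 others without a test. None of the 92 probe sets lay 1 log2 unit or more outside that range, against 0.595% of all probe sets above and 0.355% below it. At any distance 4 lay above (4.35%, against 6.73% of all) and 6 below (6.52%, against 4.11%). Those above were both probe sets of Abcg1 (12.71 and 11.20) and dim ones of Abcb1a (9.04) and Abcb9 (8.37). Those below were Abcb10 (9.50), Abcg2 (9.60), Abcb4 (10.98), Abcb6 (8.40), Abcd3 (10.64) and a probe set of Abcc5 (9.78). The erythroid sum of this sample, 12.76, was also below the lowest of the others, 14.06.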

How the data were processed

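RNA of 16 marrow samples was hybridised to 2 chip types. The deposited intensity values are MAS5 signals, per the submitters' processing notes, on a linear scale; no source used here gives the software version, and each array's 2% trimmed mean lies between 1500 and 1501, so no further scaling was done. The deposited instrument records served only for chip lot, scan day and population names. Signals were floored at each chip type's 25th percentile and set to log2. A probe set was tested if it passed the chip type's median on at least 3 of 15 arrays, which left 28606 of 45037. limma 3.58.1 in R 4.3.3 fitted the 5 replicated populations with an intensity trend, per chip type, and p-values were adjusted by Benjamini-Hochberg over both at a threshold of 0.05. All p-values are two-sided; the number of arrays limits the precision, and the floor understates differences of dim probe sets. The code was tested on simulated data. Genes are named from GEO's platform annotation; all 92 symbols match RefSeq.

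Values per sample are given for genes that passed the F test, for Abcb1a, Abcb1b and Abcg2, and for the gene with the highest mean signal of each subfamily; other members named, such as those called in single comparisons, were added after their values were seen. The members and gene lists were chosen with earlier results of these data known. Replicate numbers did not pair the samples (30 pairs, correlations of deviations from -0.083 to 0.12). Alternatives were normalization, floor, filter, blocks, the Gapdh ratio as covariate, fewer samples and leaving out each sample.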

Additional observations from a re-analysis of the deposited data

How the results depend on the processing

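No call of an ABC probe set turned its sign under any alternative run. The F test called 15 probe sets and between 10 and 20 under the alternatives. Counts moved by over 1.5 times as follows. With chip lot as a block on chip type A, calls were 3 between stem-enriched and cKit-negative cells, 6 between stem-enriched cells and total marrow, 2 between lineage-depleted and total marrow and 0 between stem-enriched cells and lineage-depleted marrow, where 10 had an unadjusted p below 0.05 in limma's fit without the block. With scan day as a random block, which acted on chip type A alone, they were 1 between stem-enriched and cKit-positive cells, 3, 8, 2 and 2 in the order above. With the Gapdh ratio as a covariate they were 1 between stem-enriched and cKit-positive, 10 between stem-enriched and cKit-negative, 3 between cKit-positive and cKit-negative cells, 23 between stem-enriched cells and total marrow and 7 between stem-enriched cells and lineage-depleted marrow. Fitting only the populations compared gave 0 between stem-enriched and cKit-positive (7 at an unadjusted p below 0.05 in the fit of all), 1 between cKit-positive and cKit-negative cells and 7 between lineage-depleted and total marrow. Without a filter 3 remained between cKit-positive and cKit-negative cells, and a further limit of 2-fold left 3 between stem-enriched and cKit-negative cells. Within chip lot 2 calls were 0 between stem-enriched and cKit-positive, 1 between stem-enriched and cKit-negative and 3 between cKit-positive and cKit-negative cells. Within scan day 2 the last was 0, and within lot 3 there was 1 between lineage-depleted and total marrow. These fits use fewer samples, and those within a chip lot left the fit of chip type B as it was. On chip type A, lot 2 and scan day 2 held, of the cKit-positive samples, only the second, which stood apart, and the third. The random block on scan day cannot part day from population where the populations compared share no day. Otherwise the cause was not tested. Leaving out 1 sample gave 10 to 18 F test calls, and in the order of stem-enriched against cKit-positive, against cKit-negative, cKit-positive against cKit-negative, stem-enriched against total, lineage-depleted against total and stem-enriched against lineage-depleted, 0 to 3, 2 to 8, 2 to 8, 9 to 16, 1 to 6 and 2 to 6. With the replicate number as a block the counts were 15, 3, 5, 5, 13, 4 and 4; Abcg1 was lost between stem-enriched cells and total marrow (adjusted p = 0.0516) and no other call changed. Over all probe sets the block on chip lot moved the calls between stem-enriched cells and total marrow from 4107 to 1789. A total of 35 probe sets lay under the filter, so for them these arrays give no tested difference.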
